A study of Mus musculus with 18 samples.

Results

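The RPE recognises, binds and ingests shed photoreceptor outer segments through a small set of receptors and of secreted proteins that bridge these receptors to the outer segment surface, and 9 such genes were followed here: *Mertk*, *Tyro3*, *Axl*, *Gas6*, *Pros1*, *Itgav*, *Itgb5*, *Mfge8* and *Cd36*. They were chosen by symbol, with earlier results of these data known, so their shares beside those of all genes are descriptions. Of these, 9 of 9 were found among the 52636 genes of the count table. MERTK, TYRO3 and AXL form the TAM family of receptor tyrosine kinases, of which MERTK drives ingestion by the RPE, and GAS6 and PROS1 are their ligands, which hold onto phosphatidylserine exposed on outer segment tips. The integrin made of the *Itgav* and *Itgb5* products binds outer segments through the bridge MFG-E8, encoded by *Mfge8*, and CD36 is a scavenger receptor for oxidised lipids that takes part in internalisation. The same proteins also clear dying cells in macrophages and other tissues, so their transcripts are not restricted to the RPE.

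RNA-seq was performed on RPE from C57BL/6 mice at postnatal day 14, in 18 libraries that fall into 6 groups of 3. Mice were uninjected or had received, in both eyes at birth, a subretinal AAV8 vector in which the *Best1* promoter, active in the RPE, drove GFP, the constitutively nuclear form of SREBP2 (nSREBP2), a control hairpin directed against LacZ (ctrl sh), or 1 of 2 hairpins against *Lrp2* (*Lrp2* sh1 and *Lrp2* sh2). The hairpin vectors carry an mCherry-shRNA cassette in place of the GFP cassette, so ctrl sh and not GFP is their matched control. Each library holds the cells of the 2 eyes of 1 mouse, loosened from the eyecup with papain, and the labels give the tissue as retinal. GFP served as the control of nSREBP2, ctrl sh as the shared control of both *Lrp2* hairpins, and uninjected eyes as the reference for the act of injection.

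Total counts ran from 8921885 to 13696934 per library, lowest in the uninjected group. The manipulated genes went the way the labels state. *Srebf2*, which encodes SREBP2, was 2.15-fold higher with nSREBP2 than with GFP, and *Lrp2* was 3.21-fold lower with *Lrp2* sh1 and 3.03-fold lower with *Lrp2* sh2 than with ctrl sh. *Lrp2* was also 4.54-fold lower with nSREBP2 than with GFP. RPE markers were present in all groups, but at very different sums: 12 RPE genes together reached 2730 to 8095 CPM (counts scaled to the same library total) in uninjected libraries, 393 to 634 with GFP, 313 to 462 with nSREBP2, 1832 to 4073 with ctrl sh, 1529 to 2402 with *Lrp2* sh1 and 830 to 1389 with *Lrp2* sh2. Uninjected replicate 1 was the lowest of its group. Fibroblast markers, 9 genes with type I collagen among them, were far more abundant in each library, at 18706 to 85900 CPM, and endothelial, macrophage and rod markers were detected in each group. In such bulk RNA, fewer cells of a type and less RNA per cell cannot be told apart. The 3 nSREBP2 libraries carried Y-linked transcripts and the 3 GFP libraries did not, so within this pair sex and vector cannot be told apart. Y-linked transcripts were also present in uninjected replicate 3 and in *Lrp2* sh2 replicates 2 and 3.

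**Figure D1:**
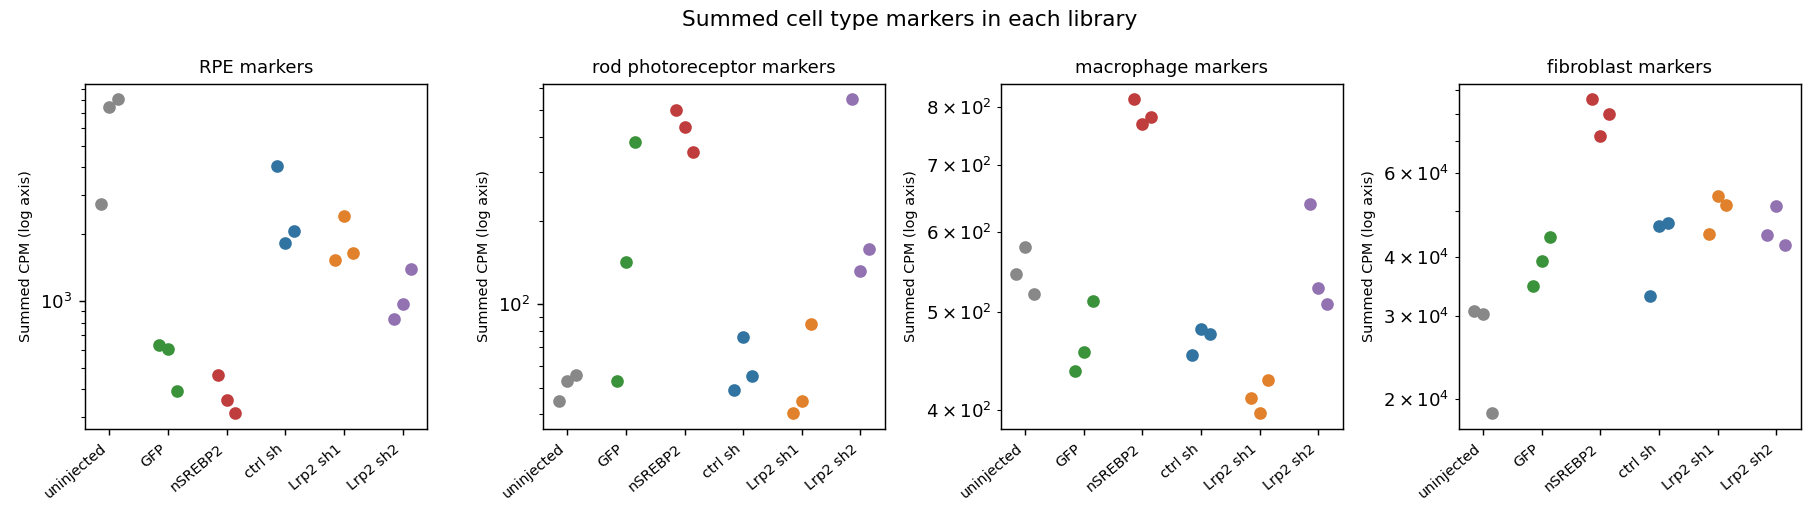
Summed normalized CPM (log axis) of the RPE, rod photoreceptor, macrophage and fibroblast marker lists in each of the 18 libraries, by group. RPE markers were highest in uninjected libraries (2730 to 8095 CPM), and macrophage and fibroblast markers were highest with nSREBP2 (769 to 813 and 71988 to 85900 CPM).

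The 9 genes were all expressed well above detection, the lowest single value being 155 counts for *Cd36*. Per kilobase of exon, and averaged over the 18 libraries, *Gas6* was the most abundant at 177 CPM per kb. *Axl* followed at 76.0, *Itgb5* at 70.7, *Itgav* at 41.0, *Mfge8* at 35.6, *Pros1* at 27.8, *Mertk* at 16.5, *Tyro3* at 10.99 and *Cd36* at 6.19 CPM per kb. *Gas6* and *Tyro3* also moved most between groups, with the highest group mean 3.86 and 3.73 times the lowest, against 1.30 times for *Pros1*. *Gas6* shares 34 exon bases with *Tmem255b* and *Itgav* shares 634 with *Gm13684*, each on the opposite strand, and whether strand was used in counting is not stated, so a part of their counts may belong to these partners.

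Because SREBP2 binds sterol response elements and E-boxes, the 250 bases upstream of the RefSeq start of each gene (GRCm38.p6) were searched on both strands for the SRE-like letters GTGGGG, which read CCCCAC on the other strand, and for the palindromic E-box letters CACGTG. SRE-like letters were present upstream of 4 of the 9 genes, and in 25.5% of the 32851 promoters of that length. The E-box letters were present in 0 of 9, against 6.02% of all promoters. The 4 windows that hold SRE-like letters are shown 5′ to 3′ on the gene's strand, with those letters in capitals, since the genes below them responded to nSREBP2 in different ways. *Gas6* has 2 adjacent matches and *Pros1* 2 overlapping ones, and they lie at chr8:13494536-13494785 (minus strand) and chr16:62854057-62854306 (plus strand), and *Itgb5* and *Mfge8* have 1 each and lie at chr16:33829415-33829664 (plus strand) and chr7:79149061-79149310 (minus strand).
Gas6: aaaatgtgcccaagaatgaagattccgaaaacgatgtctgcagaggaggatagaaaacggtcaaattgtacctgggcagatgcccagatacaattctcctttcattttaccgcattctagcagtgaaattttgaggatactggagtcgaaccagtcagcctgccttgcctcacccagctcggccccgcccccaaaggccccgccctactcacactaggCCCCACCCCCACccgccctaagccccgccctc
Pros1: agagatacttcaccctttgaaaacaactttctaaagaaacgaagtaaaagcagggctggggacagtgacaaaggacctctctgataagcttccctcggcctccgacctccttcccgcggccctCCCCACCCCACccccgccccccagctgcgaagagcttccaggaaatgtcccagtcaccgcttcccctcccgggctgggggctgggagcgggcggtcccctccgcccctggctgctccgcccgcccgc
Itgb5: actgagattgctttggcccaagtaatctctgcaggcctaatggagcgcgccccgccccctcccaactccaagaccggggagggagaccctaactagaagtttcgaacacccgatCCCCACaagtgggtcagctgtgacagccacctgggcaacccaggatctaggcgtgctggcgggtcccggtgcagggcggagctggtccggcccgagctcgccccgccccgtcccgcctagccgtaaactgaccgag
Mfge8: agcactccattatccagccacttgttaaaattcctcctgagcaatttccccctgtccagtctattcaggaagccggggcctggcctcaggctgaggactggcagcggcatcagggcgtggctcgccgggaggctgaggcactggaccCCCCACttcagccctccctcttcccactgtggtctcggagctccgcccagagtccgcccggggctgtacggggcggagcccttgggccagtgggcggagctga
Of these 4, *Gas6* was lower, *Itgb5* and *Mfge8* were higher and *Pros1* did not pass the test with nSREBP2 (values given with that comparison). *Tyro3*, *Axl* and *Cd36*, which also passed it, have none of these letters in their windows, and for *Tyro3* and *Cd36* the RefSeq start is 1 of several starts of the gene. A match of letters is a description and not a binding site.

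*Mertk*, the ingestion receptor, stood at 100.4, 115 and 114 CPM in the uninjected libraries, and at 48.8 to 81.6 CPM in the 15 injected ones. No injected library reached the lowest uninjected one. Among the injected groups, neighbouring means in the order ctrl sh (74.5 CPM), *Lrp2* sh1 (69.9), GFP (64.4), nSREBP2 (58.9) and *Lrp2* sh2 (51.7) overlapped in their libraries. *Axl*, the TAM receptor associated with inflammatory settings, was steadier, with group means of 303 to 367 CPM in 4 groups, 555 ± 10.7 CPM with nSREBP2 and 418 ± 48.9 CPM with the *Lrp2* sh2 vector (SD, n = 3 each). No nSREBP2 library overlapped another group. *Tyro3*, the third TAM receptor, ranged from 35.3 ± 4.62 CPM with nSREBP2 to 132 ± 37.0 CPM in the *Lrp2* sh2 group (SD, n = 3 each).

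**Figure D2:**
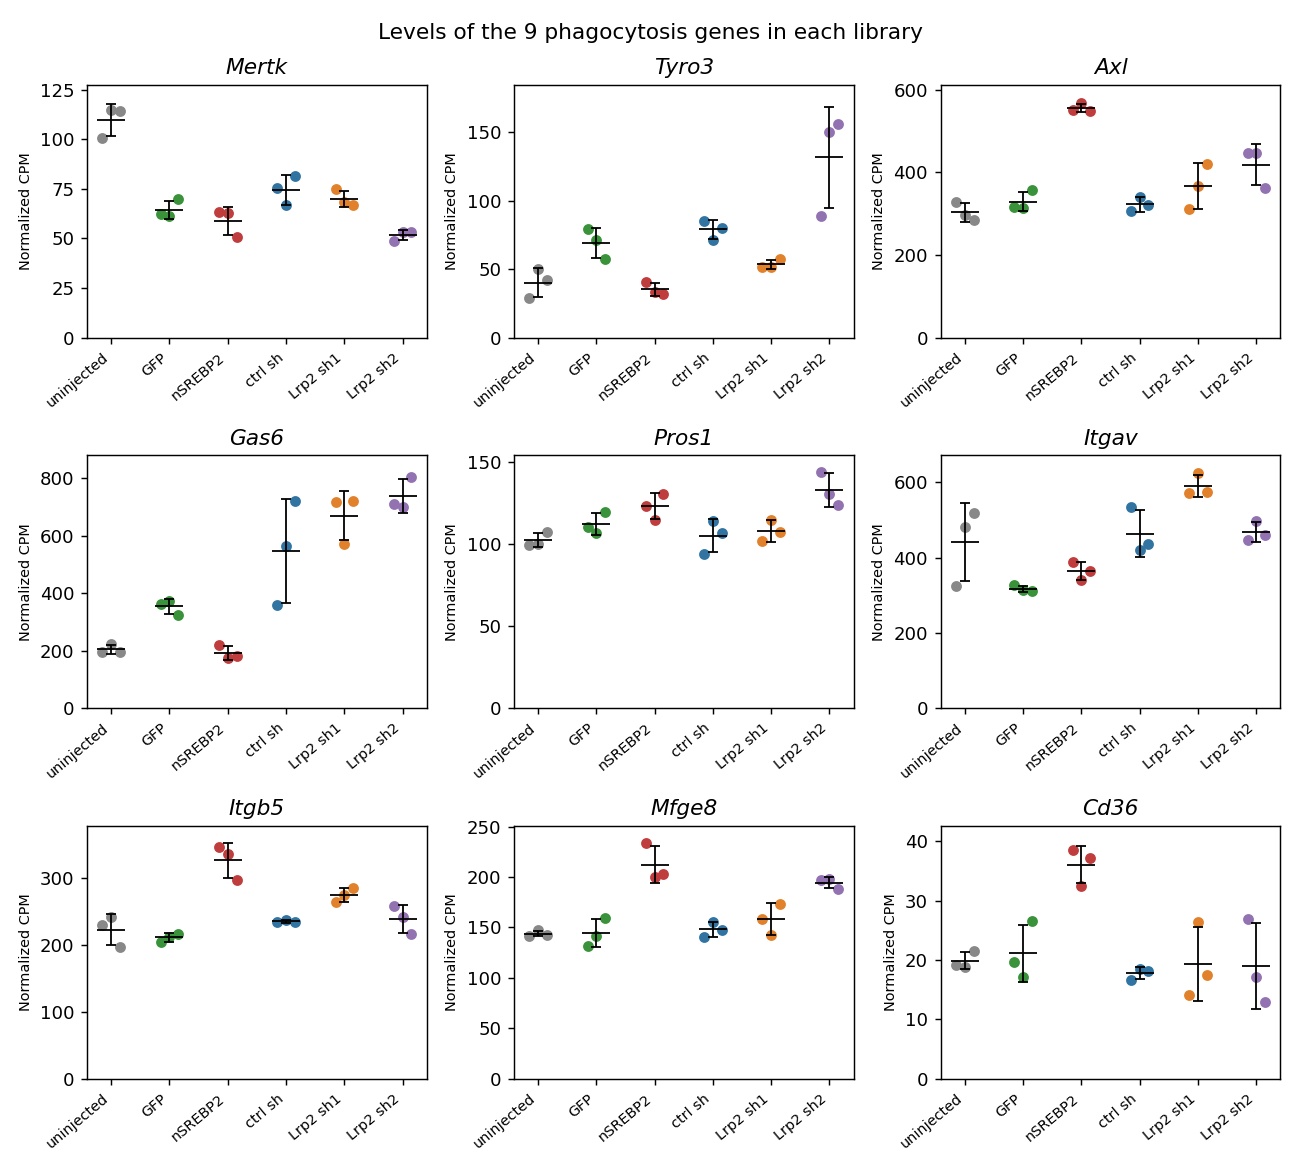
Normalized CPM of the 9 genes in the 18 libraries, by group; points are libraries, and the bar and whiskers are the mean and SD of 3. The 3 uninjected libraries lie above the others for *Mertk*, and the 3 nSREBP2 libraries lie above the others for *Axl*, *Cd36*, *Itgb5* and, narrowly, *Mfge8*.

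Set against exon length, *Axl* made up most of the TAM receptor transcripts in each library. Its share of the summed CPM per kb was 65.4% ± 4.06 in uninjected eyes, 71.5% ± 1.98 with GFP and 85.1% ± 1.40 with nSREBP2 (SD, n = 3 each). The share of *Mertk* was 27.5% ± 2.32 in uninjected eyes and 16.2% ± 0.424 with GFP, and was near 10% in the 2 groups where it was lowest (10.5% ± 1.02 with nSREBP2 and 10.3% ± 0.795 with *Lrp2* sh2; SD, n = 3 each). *Tyro3* took 4.39% ± 0.539 of the sum with nSREBP2 and 18.3% ± 5.29 with *Lrp2* sh2, its lowest and highest shares. These shares are descriptions of a mixed tissue, because the cell types that carry each transcript were not separated.

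**Figure D3:**
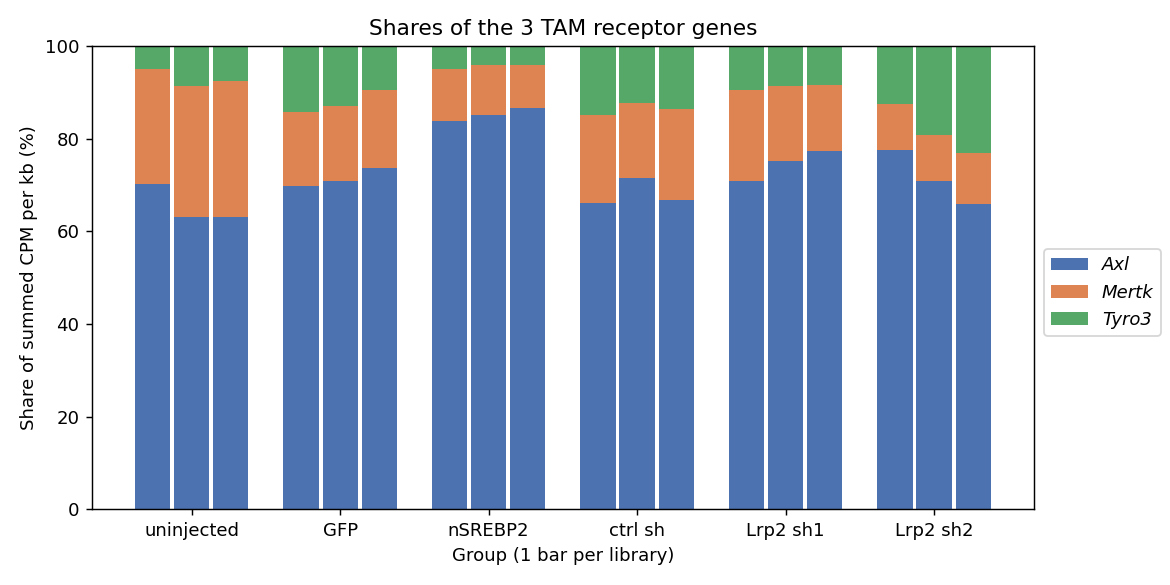
Share (%) of *Axl*, *Mertk* and *Tyro3* in their summed CPM per kb of exon, 1 stacked bar per library. *Axl* holds the largest share in all 18 libraries, from 63.0% in an uninjected library to 86.6% in an nSREBP2 library.

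The comparison of nSREBP2 with GFP asked how these genes respond to an active SREBP2 in the RPE. *Axl*, *Cd36*, *Itgb5* and *Mfge8* rose and *Tyro3* and *Gas6* fell, each by between 1.47- and 1.96-fold, and the levels of *Mertk*, *Pros1* and *Itgav* did not pass the test. Thus 6 of 9 genes passed an adjusted p of 0.05, where 21% of the 17927 genes tested did, with 4 higher (12.6% of all genes) and 2 lower (8.47%). None of the 9 passed when a log2 fold change beyond 1 was also asked, which 6.67% of genes did. The median absolute log2 fold change was 0.63 over the 9 genes and 0.22 over all genes tested. In mean CPM the 9 genes lay above 79.6% (*Cd36*) to 99.5% (*Gas6*) of detected genes. Shares among genes of like level were not computed.

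Among the receptors, *Tyro3* measured 40.5, 33.4 and 31.9 CPM with nSREBP2 and 79.3, 71.0 and 57.1 CPM with GFP. The groups did not overlap, and the log2 fold change was -0.97 ± 0.13 (SE; adjusted p = 0.0007 by edgeR's quasi-likelihood test, the test used throughout). *Axl* measured 551, 568 and 548 CPM against 316, 315 and 356 CPM, a log2 fold change of 0.76 ± 0.07 (SE; adjusted p = 8.5e-05). *Axl* therefore went up where *Tyro3* went down, with no overlap between libraries in either gene. *Mertk* measured 63.2, 62.8 and 50.7 CPM against 62.1, 61.5 and 69.6 CPM, with overlapping libraries and a log2 fold change of -0.13 whose 95% interval ran from -0.32 to 0.06.

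Of the ligands of these receptors, *Gas6* fell and *Pros1* did not pass the test. *Gas6*, which activates each of the TAM receptors, measured 219, 174 and 181 CPM with nSREBP2 and 364, 374 and 326 CPM with GFP, without overlap, and fell by 0.89 ± 0.10 on the log2 scale (SE; adjusted p = 0.00021). *Pros1*, also known as an anticoagulant cofactor, measured 123, 115 and 131 CPM against 110.0, 107 and 119 CPM. Its libraries overlapped, and the log2 fold change of 0.13 had a 95% interval of -0.01 to 0.28.

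In the binding arm *Itgb5* and *Mfge8* went up, and the higher values of the shared integrin chain *Itgav* did not pass the test. *Itgb5* measured 346, 335 and 297 CPM with nSREBP2 and 204, 212 and 217 CPM with GFP (log2 fold change 0.63 ± 0.07 SE, adjusted p = 0.00033). *Mfge8*, its bridge, measured 234, 200.0 and 203 CPM against 132, 142 and 160 CPM (0.56 ± 0.09 SE, adjusted p = 0.002). In both genes the lowest nSREBP2 library exceeded the highest GFP library. *Itgav*, whose product pairs with several β chains, measured 388, 339 and 365 CPM against 326, 314 and 310 CPM, and its log2 fold change of 0.20 did not pass the test (adjusted p = 0.069) although the groups did not overlap. *Cd36* measured 38.5, 32.6 and 37.2 CPM against 19.6, 17.2 and 26.6 CPM, a log2 fold change of 0.77 ± 0.15 (SE; adjusted p = 0.0055).

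Markers of other cells moved in the same comparison. All 9 fibroblast markers (34593 to 44089 CPM with GFP, 71988 to 85900 with nSREBP2, median log2 fold change 0.86) and 13 of 14 macrophage markers (438 to 513 against 769 to 813 CPM, median 1.06) were higher. Of 16 rod markers 4 were higher (53.0 to 384 against 353 to 502 CPM), and 8 of 12 endothelial and 4 of 6 pericyte and smooth muscle markers were lower. Of 12 RPE markers 5 were lower and 2 higher (393 to 634 against 313 to 462 CPM, median -0.18). Their part in the values of *Axl*, *Itgb5*, *Mfge8*, *Cd36*, *Tyro3* and *Gas6* was not tested. When all 18 libraries were fitted together and sex was added as a term, the same 6 genes passed, with *Tyro3* at -1.43, *Cd36* at 1.11 and *Gas6* at -0.90 (adjusted p = 0.033). The sex term of that fit rests on the uninjected and *Lrp2* sh2 groups, the only ones with and without Y-linked transcripts. It is taken to be equal in all groups, so that fit cannot tell sex from vector within this pair. Against uninjected instead of GFP libraries, *Gas6* (-0.10, adjusted p = 0.49) and *Tyro3* (-0.20, adjusted p = 0.48) did not pass and *Mertk* (-0.90, adjusted p = 0.00042) and *Pros1* (0.26, adjusted p = 0.038) did.

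**Figure D4:**
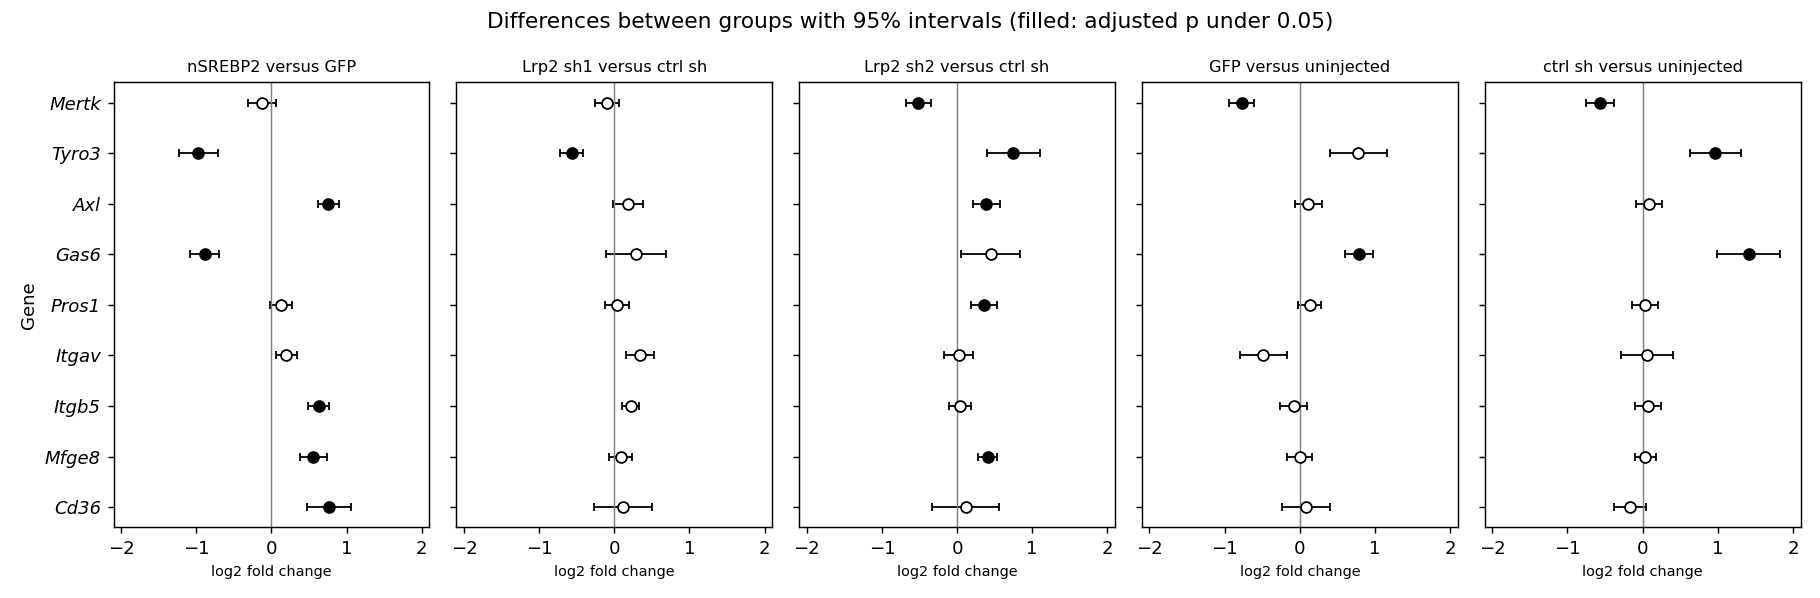
Log2 fold change of each gene in 5 comparisons, with 95% intervals that assume a normal error. Filled points have an adjusted p under 0.05. Filled points are on both sides of 0 for nSREBP2 and for *Lrp2* sh2, and only *Tyro3* is filled for *Lrp2* sh1, at -0.57.

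The *Lrp2* hairpins were each compared with ctrl sh to see how the same genes respond to loss of *Lrp2*, an endocytic receptor. With *Lrp2* sh1, *Tyro3* fell and the other 8 genes did not pass, so 1 of 9 was called where 5.33% of the 17801 genes tested were. *Tyro3* measured 51.4, 51.8 and 57.3 CPM with *Lrp2* sh1 and 85.3, 71.5 and 80.1 CPM with ctrl sh, without overlap, and its log2 fold change was -0.57 ± 0.08 (SE; adjusted p = 0.0036). *Itgb5* (264, 274 and 285 CPM against 234, 238 and 234 CPM) and *Itgav* (573, 623 and 575 against 535, 419 and 436 CPM) lay higher without overlap, with log2 fold changes of 0.22 and 0.34, but did not pass (adjusted p = 0.055 and 0.068). For *Mertk* the 95% interval of the log2 fold change was -0.25 to 0.06, and for *Gas6* it was -0.12 to 0.69. The median absolute log2 fold change was 0.18 over the 9 genes and 0.15 over all genes. The *Tyro3* call was lost when all 18 libraries shared 1 fit (adjusted p = 0.13, and 0.083 with sex as a term), and with DESeq2 *Itgav* (adjusted p = 0.004) and *Itgb5* (adjusted p = 0.03) passed beside it. *Itgav* also passed without ctrl sh replicate 1, the highest of that group (0.46, adjusted p = 0.0025). RPE markers overlapped between these groups and 0 of 12 passed. Of 6 pericyte and smooth muscle markers 3 were lower and 0 higher (2534 to 2818 against 3154 to 3342 CPM). Of the macrophage markers 1 of 14, of the endothelial 1 of 12 and of the blood markers 1 of 6 were lower. Their part in these values was not tested.

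With *Lrp2* sh2, *Mertk* fell and *Tyro3*, *Mfge8*, *Axl* and *Pros1* rose, so 5 of 9 genes were called where 18.1% of the 18089 genes tested were (4 higher against 8.59%, 1 lower against 9.48%). *Mertk* measured 48.8, 53.2 and 53.1 CPM with *Lrp2* sh2 and 75.2, 66.6 and 81.6 CPM with ctrl sh, a log2 fold change of -0.51 ± 0.08 (SE; adjusted p = 0.0031). *Mfge8* measured 197, 198 and 188 CPM against 141, 156 and 148 CPM (0.41 ± 0.06 SE, adjusted p = 0.0026). In these 2 genes the libraries did not overlap and the call held when any 1 library was left out. *Tyro3* measured 89.1, 150 and 156 CPM against the ctrl sh values given above, with replicate 1 well below the other two (0.75 ± 0.18 SE, adjusted p = 0.019). *Axl* measured 446, 447 and 362 CPM against 305, 340 and 321 CPM (0.39 ± 0.09 SE, adjusted p = 0.018). *Pros1* measured 144, 130 and 124 CPM against 94.0, 114 and 107 CPM (0.35 ± 0.09 SE, adjusted p = 0.023). All 3 were higher in 3 of 3 *Lrp2* sh2 libraries than in any ctrl sh library, but their calls did not hold in every fit that left out 1 library, in which the log2 fold changes stayed positive. That of *Pros1* (adjusted p from 0.058 to 0.077) and that of *Axl* (0.051 to 0.075) were lost without ctrl sh replicate 1 or 3 or *Lrp2* sh2 replicate 1 or 2, and that of *Tyro3* (0.055 to 0.081) without replicate 2 or 3 of either group. The *Tyro3* call was also lost with sex as a term (0.40, adjusted p = 0.26).

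The other 4 genes did not pass with *Lrp2* sh2. *Gas6* was at 709, 700.2 and 806 CPM against 359, 564 and 720.2 CPM, where ctrl sh replicate 1 was the low value. Its log2 fold change was 0.45 with a 95% interval of 0.05 to 0.84 (adjusted p = 0.16), and it passed without ctrl sh replicate 3 (adjusted p = 0.046). *Itgav* and *Itgb5* differed by 0.02 and 0.03 on the log2 scale, with 95% intervals of -0.17 to 0.22 and -0.11 to 0.18. *Cd36* was at 27.0, 17.2 and 12.9 CPM against 16.7, 18.6 and 18.1 CPM, so that the *Lrp2* sh2 libraries lay on both sides of the controls. In this comparison 5 RPE markers were lower and 2 higher of 12 (830 to 1389 CPM against 1832 to 4073, median log2 fold change -1.44). Of the rod markers 14 of 16 were higher (131 to 547 against 48.9 to 76.2 CPM), and 10 of 12 endothelial markers were lower (1979 to 2186 against 2961 to 3091 CPM). Of the macrophage markers 2 of 14 and of the fibroblast markers 4 of 9 were higher, and 5 of 6 blood markers were lower. Of 6 pericyte and smooth muscle markers 4 were lower and 1 higher. Their part in the fall of *Mertk* and the rise of the others was not tested.

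Set directly against each other, the 2 hairpins differed in 5 of 9 genes, where 22.4% of the 17975 genes tested differed. *Tyro3* was 2.48-fold higher with *Lrp2* sh2 than with *Lrp2* sh1 (log2 fold change 1.31 ± 0.17 SE, adjusted p = 0.00058), the only one of the 9 called past a log2 fold change of 1 (5.13% of all genes were). It was thus below ctrl sh with one hairpin and above it with the other, without overlap in either case. No ctrl sh or *Lrp2* sh1 library carried Y-linked transcripts. The *Lrp2* sh2 libraries with them, replicates 2 and 3, had 150 and 156 CPM of *Tyro3*, and replicate 1 had 89.1 CPM. With sex as a term *Tyro3* still differed between the hairpins (0.97, adjusted p = 0.0058). Its rise over ctrl sh with *Lrp2* sh2 (0.40, adjusted p = 0.26) and its fall with *Lrp2* sh1 (-0.57, adjusted p = 0.083) did not pass. *Mertk* was lower (-0.42 ± 0.07 SE) and *Itgav* was lower (-0.32 ± 0.06 SE), while *Pros1* (0.31 ± 0.08 SE) and *Mfge8* (0.31 ± 0.07 SE) were higher with *Lrp2* sh2. *Itgb5* did not pass, but did without *Lrp2* sh2 replicate 1 (-0.25, adjusted p = 0.032). The target *Lrp2* itself was at 37.0 ± 6.56 CPM with the first hairpin and 38.6 ± 4.57 CPM with the second (SD, n = 3 each), with overlapping libraries. Of 12 RPE markers 7 were lower and 2 higher with *Lrp2* sh2. Rod markers (14 of 16) and macrophage markers (9 of 14, 510 to 641 against 397 to 428 CPM) were higher, and endothelial markers (11 of 12) were lower. Fibroblast markers were higher in 2 of 9 cases and blood markers lower in 3 of 6. Of 6 pericyte and smooth muscle markers 3 were lower and 1 higher. The part of these markers in the differences between the hairpins was not tested.

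Injection with a control vector was followed by its own pattern. *Mertk* fell and *Gas6* rose with both control vectors, and *Tyro3* rose with ctrl sh. With GFP, 2 of 9 genes passed where 2.48% of the 17837 genes tested did, and with ctrl sh 3 of 9 passed where 6.49% of 17822 did (1 of them, *Gas6*, past a log2 fold change of 1, as 2.39% of genes were). The 2 comparisons share the uninjected libraries. *Mertk* was 1.71-fold lower with GFP (log2 fold change -0.77 ± 0.09 SE, adjusted p = 0.0052) and 1.48-fold lower with ctrl sh (-0.57 ± 0.09 SE, adjusted p = 0.015). *Gas6* measured 196, 222 and 197 CPM in uninjected eyes, and was 1.73-fold higher with GFP (0.79 ± 0.09 SE, adjusted p = 0.0059) and 2.66-fold higher with ctrl sh (1.41 ± 0.21 SE, adjusted p = 0.012). The nSREBP2 libraries (174 to 219 CPM) overlapped those of uninjected eyes. *Tyro3* measured 28.7, 50.2 and 41.8 CPM in uninjected eyes, below each GFP and ctrl sh library (0.78 ± 0.19 SE, adjusted p = 0.076 with GFP; 0.97 ± 0.17 SE, adjusted p = 0.019 with ctrl sh). *Tyro3* passed with GFP by DESeq2 (adjusted p = 0.0024) and without a filter on low counts (adjusted p = 0.0024). *Itgav* did not pass with GFP (-0.48, adjusted p = 0.15) but did without uninjected replicate 1 (-0.66, adjusted p = 0.0034). *Pros1*, *Axl*, *Itgb5*, *Mfge8* and *Cd36* did not pass in either comparison, with log2 fold changes between -0.17 and 0.13.

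RPE markers moved with injection: 8 of 12 were lower with GFP (median log2 fold change -3.08), and 0 of 12 passed with ctrl sh although their median was -1.11. Fibroblast sums were higher without overlap (18706 to 30658 CPM uninjected, 34593 to 44089 with GFP, 33057 to 47154 with ctrl sh), though 0 and 1 of 9 markers passed. With GFP 3 of 14 tested rod markers were higher and 1 of 14 macrophage markers lower. With ctrl sh 2 of 6 pericyte and smooth muscle and 2 of 14 macrophage markers were lower. *Mertk* fell in the same libraries, and the part of the markers in its fall and in the rises of *Gas6* and *Tyro3* was not tested. The 3 calls with ctrl sh were each lost without ctrl sh replicate 2 (adjusted p = 0.078 for *Mertk*, 0.058 for *Gas6* and 0.069 for *Tyro3*). That of *Mertk* was also lost without uninjected replicate 3 (0.053), and that of *Tyro3* without uninjected replicate 3 (0.057) or ctrl sh replicate 3 (0.075). Between the 2 control vectors themselves, *Itgav* was higher with ctrl sh (464 ± 62.7 against 317 ± 8.37 CPM; SD, n = 3 each; log2 fold change 0.54 ± 0.10 SE, adjusted p = 0.021), the 1 of 9 genes called where 2.68% of 18018 were. In this comparison 4 of 12 RPE markers were higher and 0 lower with ctrl sh (1832 to 4073 against 393 to 634 CPM, median log2 fold change 1.62), and their part in the *Itgav* value was not tested. That call was lost without GFP replicate 2 (adjusted p = 0.095), GFP replicate 1 (0.07) or ctrl sh replicate 3 (0.0503). *Gas6* did not pass (0.61, adjusted p = 0.196) but did without ctrl sh replicate 1 (0.84, adjusted p = 0.0044) and without a filter on low counts (0.62, adjusted p = 0.0037).

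The effect of nSREBP2 was also set against that of each hairpin in 1 fit of all 18 libraries, as a difference of effects. *Lrp2* itself was lower with nSREBP2 than with GFP (30.9 against 141 CPM, log2 fold change -2.18 ± 0.24 SE). Each difference thus sets nSREBP2 with low *Lrp2* against a hairpin with low *Lrp2*. Against *Lrp2* sh1, the effects differed for 4 of 9 genes where 9.75% of 19744 genes differed: *Gas6* by -1.19 ± 0.24 on the log2 scale, *Axl* by 0.57 ± 0.14, *Mfge8* by 0.46 ± 0.11 and *Itgb5* by 0.40 ± 0.11 (SE). Against *Lrp2* sh2 they differed for 3 of 9 where 5.63% of genes did: *Tyro3* by -1.72 ± 0.28, *Gas6* by -1.33 ± 0.24 and *Itgb5* by 0.59 ± 0.11 (SE). *Gas6* and *Itgb5* were the genes called in both, and the 2 differences share the GFP, nSREBP2 and ctrl sh libraries. Against *Lrp2* sh1, the *Itgb5* call (adjusted p from 0.057 to 0.08) was lost without replicate 1 or 2 of GFP, nSREBP2 or *Lrp2* sh1 or replicate 2 or 3 of ctrl sh. That of *Mfge8* (0.051 to 0.055) was lost without replicate 1 of GFP or nSREBP2 or replicate 2 of ctrl sh or *Lrp2* sh1, and with sex as a term (0.059). Against *Lrp2* sh2, *Mertk* passed without nSREBP2 replicate 3 (0.49, adjusted p = 0.031) and *Cd36* without *Lrp2* sh2 replicate 1 (1.01, adjusted p = 0.049).

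Around the 9 genes, 3 lists of the same process were examined by their counts. Of 17 tested partners of the phagocytic receptors, 7 were higher and 4 lower with nSREBP2 than with GFP, where 12.6% and 8.47% of all genes were (median log2 fold change 0.22, against -0.02 over all genes). *Lgals3*, encoding a galectin that bridges to MERTK, rose by 2.98 ± 0.13 on the log2 scale, from 8.62 to 68.0 CPM, and is also made by macrophages, whose markers rose here. *Lrp1*, a large endocytic receptor for dying cells, rose by 0.73 ± 0.08, and *Itgb8*, another partner of the *Itgav* chain, was lower at -1.44 ± 0.14 (SE). *Tulp1* and *Tub*, whose products can link phagocytic targets to MERTK, were higher at 1.86 and 1.54. *Tulp1* is itself a photoreceptor gene, and 4 of 16 rod markers were higher in this comparison. The part of macrophages in the *Lgals3* value and of rods in the *Tulp1* value was not tested.

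*Itgb8* was also lower with both hairpins, from 746 CPM with ctrl sh to 226 CPM with *Lrp2* sh1 and 154 CPM with *Lrp2* sh2 (log2 fold changes -1.73 ± 0.24 and -2.26 ± 0.24 SE). With *Lrp2* sh1, where 5.33% of all genes passed, it was the 1 lower gene of the list and *Scarb2*, a lysosomal membrane protein of the CD36 family, the 1 higher (0.52 ± 0.07 SE). With *Lrp2* sh2, 6 partners were higher and 3 lower, where 8.59% and 9.48% of all genes were, with *Thbs1*, a thrombospondin that binds CD36, at 0.60 ± 0.10 and *Scarb1*, the high density lipoprotein receptor, at -0.68 ± 0.07 (SE). The medians of the list were 0.05 and 0.08, against -0.01 and 0.01 over all genes.

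Of 22 genes of engulfment signaling and the cytoskeleton, 2 rose and 1 fell with nSREBP2 (21% of all genes tested passed). With *Lrp2* sh1 0 passed (5.33% of all genes), and for *Lrp2* sh2 2 rose and 2 fell (18.1% of all genes passed), with list medians of 0.01, 0.02 and 0.03. *Fscn1*, which bundles actin, rose by 0.63 ± 0.08, *Anxa2*, a membrane-binding annexin, by 0.68 ± 0.13, and *Ezr*, an organiser of RPE microvilli, fell by 0.53 ± 0.12 with nSREBP2 (log2 scale, SE). With *Lrp2* sh2, *Myh10*, a nonmuscle myosin, was higher (0.43 ± 0.08 SE), and *Src* (-0.32 ± 0.07 SE) and the adaptor *Bcar1* (-0.36 ± 0.09 SE) were lower. *Ptk2*, encoding the kinase that acts downstream of the integrin, and *Myo7a*, a motor that carries phagosomes, did not pass in the comparisons with GFP or ctrl sh.

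Of 17 genes of phagosome handling, 2 rose and 2 fell with nSREBP2, where 21% of all genes passed. With *Lrp2* sh1, 2 rose and 0 fell (5.33% of all genes passed), and for *Lrp2* sh2 2 rose and 2 fell (18.1% of all genes passed), with medians of 0.06, 0.11 and -0.02. *Ctss*, a lysosomal protease abundant in macrophages, rose by 2.31 ± 0.10 with nSREBP2 and by 0.66 ± 0.20 with *Lrp2* sh2 (log2 scale, SE). *Ctsd*, the main opsin-degrading protease of the RPE, rose by 0.91 ± 0.14 with nSREBP2 and by 0.48 ± 0.07 with *Lrp2* sh1. *Rilp*, an effector of RAB7, was lower with nSREBP2 (-1.55 ± 0.26 SE) and with *Lrp2* sh2 (-1.28 ± 0.22 SE), at levels of only 1.42 to 4.57 CPM. *Kif5b* (0.24 ± 0.06 SE), a kinesin, was higher with *Lrp2* sh1, and *Lamp1* (0.31 ± 0.07 SE), a lysosomal membrane glycoprotein, was higher with *Lrp2* sh2.

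Finally, the genes whose levels followed each of the 9 most closely over the 18 libraries were identified among 12357 genes with a mean of at least 5 CPM, by Pearson correlation of log2 CPM. For *Mertk* these were *Inpp4b* (r = 0.94), *Stard13* (0.93) and *Inpp5k* (0.92). The nearest gene was *Gria3* for *Gas6* (0.97), *S1pr2* for *Axl* (0.97), *Fam20c* for *Mfge8* (0.96), *Fras1* for *Tyro3* (0.95), *Emilin3* for *Itgb5* (0.93), *Slc19a2* for *Itgav* (0.92), *Ttc26* for *Pros1* (0.87) and *Pdzd4* for *Cd36* (0.87). These correlations are descriptions. The libraries of a group share their vector, and the marker sums of several cell types differ between the groups.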

How the data were processed

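Both eyes of each mouse were pooled, RNA was depleted of ribosomal RNA, and directional libraries were sequenced as paired reads. The authors mapped reads to GRCm38 with STAR at default settings and deposited raw counts of reads per gene. The annotation and the use of strand are not given in the sources used here. The 1 row that names no gene holds group names in place of counts and was left out, and 16093 genes had no count in any library.

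Groups and replicates were taken from the labels. Each comparison was fitted to the deposited counts of its own 6 libraries in edgeR 4.0.16 under R 4.3.3 (TMM factors after filterByExpr, then glmQLFit and glmQLFTest, with Benjamini-Hochberg adjustment over all genes tested), and differences of effects to all 18 libraries. The study's own methods name DESeq2 and a log2 fold change above 1, and both were run as alternatives, with DESeq2 1.42.0. Fits were tested on simulated data. CPM (counts per 1000000) used TMM scaling over all libraries. Standard errors were derived from the fold change and its F value, and 95% intervals assume a normal error. With 3 libraries per group they are narrower than the test itself allows, so calls rest on the test and not on the intervals. Intervals cover the spread between mice of a group only. Columns of other comparisons were not present.

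Exon lengths, starts and overlaps came from GENCODE M21 (52489 of 52636 identifiers matched without their version). Promoters for 9 of 9 genes came from RefSeq (GRCm38.p6). Named genes were the 9 genes, *Srebf2* and *Lrp2*, up to 3 genes per list and comparison with the smallest adjusted p and no overlap, and the genes most like each of the 9 by log2(CPM + 0.5). *Tulp1*, *Tub*, *Ptk2* and *Myo7a* were added after their values were seen. The 9 genes and the lists were chosen with earlier results of these data known. Alternatives were another normalization and tool, other filters, all libraries in 1 fit, sex as a term, a replicate block, uninjected controls and leaving out each library.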

Additional observations from a re-analysis of the deposited data

Results flagged for a closer look

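The effects of the 2 hairpins, which share the ctrl sh libraries, differed by the test of the difference itself for 5 of the 9 genes, taken as *Lrp2* sh2 against *Lrp2* sh1. *Tyro3* differed by 1.31 on the log2 scale, with opposite directions against ctrl sh. With sex as a term, neither its rise with *Lrp2* sh2 (0.40, adjusted p = 0.26) nor its fall with *Lrp2* sh1 (-0.57, adjusted p = 0.083) passed against ctrl sh. *Mertk* differed by -0.42, *Itgav* by -0.32, *Pros1* by 0.31 and *Mfge8* by 0.31. Leaving out *Lrp2* sh1 replicate 1 ended the *Pros1* call (adjusted p = 0.066) and leaving out *Lrp2* sh1 replicate 2 ended the *Mfge8* call (adjusted p = 0.061), and the *Itgav* call was lost when all 18 libraries shared 1 fit (adjusted p = 0.082). No group of 3 libraries was tested for a library far from the others.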

How the results depend on the processing

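The precision of these values is limited by 3 libraries per group, by sex, which cannot be told apart from nSREBP2 within its own pair, and by the mixture of cells in each library. Sex was also uneven between *Lrp2* sh2 and the ctrl sh and *Lrp2* sh1 groups. Under the alternatives that kept all libraries of a comparison, gene values called in the report kept their call in 197 of 208 cases, lost it in 10 and changed sign in 1, *Tyro3* with *Lrp2* sh1 when uninjected libraries were the control (0.41). When 1 library was left out they kept it in 187 of 222 cases and lost it in 35. Genes not called passed in 16 cases and changed sign in 12 without, and in 7 and 26 with, a library left out. The cause was not tested in any of these cases.

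When a log2 fold change beyond 1 was also asked, the number of the 9 genes called became 0 for nSREBP2, *Lrp2* sh1 and *Lrp2* sh2, 0 for GFP against uninjected and for ctrl sh against GFP, and 1 for ctrl sh against uninjected and for *Lrp2* sh2 against *Lrp2* sh1. For *Lrp2* sh1 the number was 3 with DESeq2, 3 without a filter on low counts, 3 against uninjected libraries, and 0 when all 18 libraries were fitted together, with or without sex as a term. The fit of all 18 libraries called 4 for GFP against uninjected, and dropping the filter called 2 for ctrl sh against GFP.

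Deviations of libraries with the same replicate number did not correlate above 0.1 in all 3 pairs of any comparison (from -0.15 to -0.046 for nSREBP2 and from -0.010 to 0.29 for *Lrp2* sh2 against *Lrp2* sh1), so the numbers were not taken to pair the mice. With the replicate number as a block, the number of genes called was 6 for nSREBP2, 1 for *Lrp2* sh1, 4 for *Lrp2* sh2, 2 for GFP and 1 for ctrl sh against uninjected, 5 for *Lrp2* sh2 against *Lrp2* sh1 and 1 for ctrl sh against GFP.

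Log2 fold changes that were not called changed sign in these cases. With sex as a term these were *Itgav* for nSREBP2 (-0.039) and for *Lrp2* sh2 (-0.14), *Cd36* for *Lrp2* sh2 against *Lrp2* sh1 (0.19) and, for GFP against uninjected, *Cd36* (-0.031) and *Mfge8* (0.00071). Against uninjected libraries these were *Itgav* for nSREBP2 (-0.28) and *Cd36* for *Lrp2* sh1 (-0.046) and *Lrp2* sh2 (-0.061). *Mfge8* for GFP against uninjected was 0.015 with DESeq2, 0.0099 without a filter and 0.0088 in the fit of all 18 libraries. *Cd36* for *Lrp2* sh2 against *Lrp2* sh1 was 0.0068 with at least 10 counts asked in every library.

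In the lists, engulfment genes called with nSREBP2 numbered 6 with at least 10 counts asked, 6 in the fit of all 18 libraries and 8 against uninjected libraries, and phagosome genes 2 with the sex term. For *Lrp2* sh1, partners called numbered 4 with DESeq2, 5 without a filter and 5 against uninjected libraries, engulfment genes 1 without a filter and 7 against uninjected libraries, and phagosome genes 1 in the fit of all 18 libraries, 1 with sex as a term, 1 with the replicate block and 5 against uninjected libraries. With *Lrp2* sh2, phagosome genes numbered 2 with sex as a term and 2 with the replicate block.

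Over the fits that left out 1 library each, the count of called genes among the 9 ran from 1 to 2 for *Lrp2* sh1, from 2 to 4 for *Lrp2* sh2, from 0 to 3 for ctrl sh against uninjected and from 0 to 2 for ctrl sh against GFP, was 6 throughout for nSREBP2, and ran from 2 to 4 for the difference between nSREBP2 and *Lrp2* sh1. Engulfment genes ran from 2 to 6 with nSREBP2, from 0 to 1 with *Lrp2* sh1 and from 2 to 4 with *Lrp2* sh2, and phagosome genes from 1 to 2 with *Lrp2* sh1 and from 2 to 3 with *Lrp2* sh2. Log2 fold changes that crossed 0 ran, for *Lrp2* sh1, over -0.038 to 0.10 (*Pros1*) and -0.17 to 0.30 (*Cd36*), and for *Lrp2* sh2 over -0.042 to 0.13 (*Itgav*), -0.033 to 0.094 (*Itgb5*) and -0.23 to 0.32 (*Cd36*). They ran over -0.35 to 0.28 for *Cd36* between the hairpins and over -0.11 to 0.055 for *Mertk* in the difference between nSREBP2 and *Lrp2* sh1. For GFP against uninjected they ran over -0.079 to 0.060 (*Mfge8*) and -0.12 to 0.21 (*Cd36*), and for ctrl sh against uninjected over -0.11 to 0.20 (*Itgav*), -0.0010 to 0.14 (*Itgb5*) and -0.027 to 0.11 (*Pros1*). For ctrl sh against GFP they ran over -0.080 to 0.018 (*Axl*) and -0.032 to 0.10 (*Mfge8*).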
